A study of Homo sapiens with 13 samples.

Results

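The genes that carry out antigen presentation on MHC class I were followed in 2 established small cell lung cancer (SCLC) lines, H82 and H146, grown with or without FHD-286. The 9 genes were taken by symbol from the 56831 genes of each table: the heavy chains *HLA-B*, *HLA-C* and *HLA-E*, the light chain *B2M*, the peptide loading genes *TAP1*, *TAP2* and *TAPBP*, the immunoproteasome subunit *PSMB9* and the regulator *NLRC5*. FHD-286 inhibits the ATPases SMARCA4 and SMARCA2, which drive the SWI/SNF (BAF) chromatin remodeling complex. Treated cells were kept in 100 nM of it for 14 days. H82 was represented by 3 untreated and 3 treated libraries and H146 by 3 untreated and 4 treated libraries. Both lines were labelled wild type, each group is therefore 1 cell line under 1 condition, and the labels do not say whether libraries of a group came from separate cultures, so *p* values measure only the spread between these libraries.

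MHC class I molecules show fragments of a cell's own proteins to CD8 T cells. The proteasome cuts proteins into peptides, a form of it that carries *PSMB9* favors peptides that suit MHC class I, the *TAP1* and *TAP2* transporter moves them into the endoplasmic reticulum, and tapasin (*TAPBP*) holds an empty heavy chain near the transporter until a peptide is bound. Without beta-2 microglobulin (*B2M*) classical class I molecules do not reach the surface. *NLRC5* activates class I promoters, interferons raise most of these genes, and low class I expression is a known feature of neuroendocrine SCLC.

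Promoter sequences are shown for the 4 members that passed the test in either line below and had a promoter window. The class I promoters carry short elements through which *NLRC5*, interferon and NF-kappaB act. The sequences come from RefSeq (GRCh38.p14) and run 5′ to 3′ on the strand of the gene from 250 bases before to 50 bases after its start. Of the 9 members 7 had a window, all but *HLA-E* and *NLRC5*. Capitals mark the CCAAT box (CCAAT), the core of a CRE-like element (TGACG), an interferon-stimulated response element (GAAANNGAAA or GAANNGAAA) and an NF-kappaB-like site (GGGGATT or GGGACTT), each searched on both strands, with overlapping matches written as 1 run. These letters were chosen after the windows had been read.
HLA-B, chr6:31357130-31357429, minus strand: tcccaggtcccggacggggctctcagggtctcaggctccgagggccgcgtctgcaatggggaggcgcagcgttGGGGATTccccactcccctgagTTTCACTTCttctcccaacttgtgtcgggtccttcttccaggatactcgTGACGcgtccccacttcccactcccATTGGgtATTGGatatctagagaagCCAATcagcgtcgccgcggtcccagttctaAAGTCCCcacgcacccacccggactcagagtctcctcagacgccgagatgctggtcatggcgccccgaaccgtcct
HLA-C, chr6:31272043-31272342, minus strand: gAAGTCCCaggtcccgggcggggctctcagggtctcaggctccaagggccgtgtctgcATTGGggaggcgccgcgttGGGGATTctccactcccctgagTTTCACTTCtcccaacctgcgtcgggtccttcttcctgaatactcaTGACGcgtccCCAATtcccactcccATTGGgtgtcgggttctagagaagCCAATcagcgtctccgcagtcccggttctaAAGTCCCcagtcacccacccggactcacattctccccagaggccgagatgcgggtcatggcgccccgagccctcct
B2M, chr15:44711267-44711566, plus strand: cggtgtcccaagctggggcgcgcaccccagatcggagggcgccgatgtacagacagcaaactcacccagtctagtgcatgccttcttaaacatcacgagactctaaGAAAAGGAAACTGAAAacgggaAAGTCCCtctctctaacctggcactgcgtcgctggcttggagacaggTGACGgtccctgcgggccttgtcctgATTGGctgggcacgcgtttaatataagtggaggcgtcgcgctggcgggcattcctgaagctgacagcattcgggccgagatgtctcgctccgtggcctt
TAPBP, chr6:33314029-33314328, minus strand: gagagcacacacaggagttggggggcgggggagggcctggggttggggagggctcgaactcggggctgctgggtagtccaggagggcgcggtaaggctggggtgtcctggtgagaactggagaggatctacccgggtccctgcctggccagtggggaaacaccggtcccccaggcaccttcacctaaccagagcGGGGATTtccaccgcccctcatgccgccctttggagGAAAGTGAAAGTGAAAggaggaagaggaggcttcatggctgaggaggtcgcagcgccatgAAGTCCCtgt

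The windows of *HLA-B*, *HLA-C* and *B2M* each held all 4 kinds of match. In all 3 an interferon-stimulated element lay upstream of the CRE-like core, which lay upstream of the CCAAT box nearest the start. In *HLA-B* the NF-kappaB-like sites lay at -177 to -171 and at -26 to -20, the interferon-stimulated element at -155 to -147, the CRE-like core at -106 to -102 and the nearest CCAAT box at -56 to -52 bases from the start. The *TAPBP* window held 2 overlapping interferon-stimulated matches and 2 NF-kappaB-like sites, but no CCAAT or TGACG letters. Of 35116 promoter windows of the same length, 34.6% held CCAAT, 24.6% held TGACG, 10.6% the interferon-stimulated letters and 8.32% an NF-kappaB-like site. The matches describe the reference sequence, and alleles of H82 and H146 were not analysed here.

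**Figure D1:**
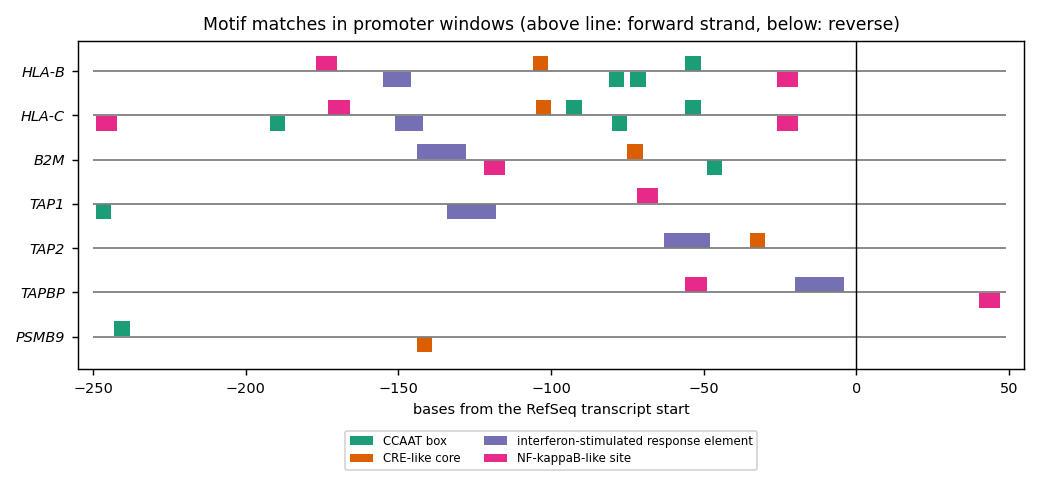
Motif matches in the promoter windows of 7 members, by distance in bases from the RefSeq start, with forward-strand matches above each line and reverse-strand matches below it. *HLA-B*, *HLA-C* and *B2M* hold all 4 kinds of match, whereas *TAPBP* holds no CCAAT box and no CRE-like core.

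Values are TPM, transcripts counted per length of the gene and scaled to a common total in every library, and the depth of the libraries is unknown. In each line limma was run on log2(TPM + 1) for genes that reached 1 TPM in 3 or more libraries, two-sided, with Benjamini-Hochberg adjustment and a threshold of 0.05. In H82, 13.1% of the 19770 genes tested were higher and 45.5% lower with treatment, and in H146 32.5% of 19585 were higher and 15.5% lower. The median log2 fold change of all genes tested was -0.56 in H82 and 0.25 in H146. It was -0.14 and -0.02 after scaling by the median of ratios between libraries, when 4793 genes were higher and 6499 lower in H82 (2588 and 8996 without it) and 4165 higher and 4917 lower in H146 (6356 and 3033 without it). Of 6 neuroendocrine markers, 6 reached 1 TPM in H82 and 5 in H146. With treatment 1 of 6 tested was higher and 3 lower in H82 (13.1% and 45.5% of all genes). In H146 0 of 5 tested were higher and 2 lower (32.5% and 15.5%). Leukocyte markers summed to 3.03 to 7.90 TPM in untreated and 2.39 to 4.37 TPM in treated H82. In H146 they summed to 7.01 to 10.4 TPM in untreated and 10.7 to 24.7 TPM in treated libraries. In treated H146 *CD14* was the highest of them, at up to 10.9 TPM. Of 3 leukocyte markers tested in H146, 1 was higher and 0 lower. Fibroblast and endothelial markers summed to 1.25 to 2.14 TPM in untreated and 7.16 to 34.01 TPM in treated H82. In H146 these were at 8.70 to 11.2 TPM in untreated and 17.03 to 32.6 TPM in treated libraries. Their part in the results was not tested, and fewer cells of a type cannot be told apart from less RNA per cell in such bulk samples.

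1 treated H82 library stood apart in genes of H146 before any test. Of 147 genes that held at least 5 TPM in every H146 library and 0 in untreated H82, 39 reached 1 TPM in H82 treated replicate 2, against 12 in replicate 1 and 7 in replicate 3. Their sum was 4.96% of the level in treated H146, against 1.12% and 0.542%. The median share per gene was lower, at 0.979%, against 0.339% and 0%. Whether RNA of H146 was carried over into replicate 2 was not tested. Results in H82 are therefore given with and without that replicate where it bears on them.

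The classical heavy chains *HLA-B* and *HLA-C* moved in opposite directions in the 2 lines. These genes encode the highly variable chains that bind peptide, and they lie on chromosome 6 (hg38, GENCODE release 44) at 31353872 to 31367067 and 31268749 to 31272130, both on the minus strand. In untreated H82 *HLA-B* was nearly silent, at 0.251, 0.340 and 0.134 TPM in replicates 1 to 3. With FHD-286 it reached 8.07, 1.96 and 3.51 TPM. Every treated H82 library lay above every untreated one, a 18.7-fold rise in mean TPM from 0.242 ± 0.103 to 4.51 ± 3.18 (SD, n = 3 each). The log2 fold change was 2.00 (SE 0.399, limma adjusted *p* = 0.00467). The gene passed the filter on low values through the treated libraries alone, so it had to differ to be tested. If replicate 2 held the summed share of treated H146 RNA named above, it would bring 2.18 TPM of *HLA-B*, more than the 1.96 TPM measured there. Such carry-over was not tested, and the median share was lower, at 0.979%. The log2 fold change was 2.37 without replicate 2. Without treated replicate 1, the highest, the rise in mean TPM was 11.3-fold and the log2 fold change 1.56 (limma adjusted *p* = 0.00299).

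*HLA-C* followed the same course from a higher start. Untreated H82 held 4.13, 6.62 and 4.33 TPM and treated H82 26.97, 39.1 and 12.1 TPM, with no overlap. The mean rose 5.18-fold, from 5.03 ± 1.38 to 26.1 ± 13.5 TPM (SD, n = 3 each), a log2 fold change of 2.05 (SE 0.411, limma adjusted *p* = 0.00476). The same summed share of treated H146 RNA would bring 9.30 TPM, beside the 39.1 TPM measured in replicate 2. Without that library the log2 fold change was 1.69 (limma adjusted *p* = 0.0122).

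In H146 both genes were abundant and fell. *HLA-B* was at 91.3, 99.2 and 91.3 TPM without treatment and at 45.1, 63.3, 37.3 and 29.8 TPM with it. No treated library reached the lowest untreated one, and the mean fell from 93.9 ± 4.54 (SD, n = 3) to 43.9 ± 14.4 TPM (SD, n = 4), which is 0.467 times the untreated level. The log2 fold change was -1.13 (SE 0.227, limma adjusted *p* = 0.00435). *HLA-C* reached the highest level of any member, at 550.4, 563 and 632 TPM in untreated H146, and it fell to 202, 298, 130.2 and 119 TPM. That is 0.322 times the untreated mean of 582 ± 44.1 TPM (log2 fold change -1.73, SE 0.294, limma adjusted *p* = 0.00204). Despite the opposite shifts the levels stayed in 1 order for both genes, from untreated H146 through treated H146 and treated H82 to untreated H82, with no overlap between neighbours. The levels of the lines come from separate tables and were not tested against each other. In the canonical reference transcripts, 2.56% of the 50-base words of *HLA-B* and 6.76% of those of *HLA-C* also occur in other genes. Alleles of H82 and H146 that differ from this reference were not analysed here. How many reads were lost or split between genes is therefore unknown, also for the order of levels above.

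*HLA-E*, a less variable class I chain that natural killer cells read through NKG2A, rose in both lines. The gene lies on chromosome 6 at 30489509 to 30494194 on the plus strand. In H82 it went from 21.7, 26.8 and 25.3 TPM to 91.0, 53.6 and 83.0 TPM. The mean rose 3.08-fold (log2 fold change 1.55, SE 0.221, limma adjusted *p* = 0.00118). The H146 libraries moved from 8.60, 7.38 and 6.81 TPM to 20.5, 32.8, 14.9 and 14.8 TPM. The mean rose 2.73-fold (log2 fold change 1.27, SE 0.268, limma adjusted *p* = 0.00551). Treated libraries lay above untreated ones in each line. Its level was highest in treated H82 and lowest in untreated H146, and untreated H82 overlapped treated H146.

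*B2M*, the invariant light chain, rose with the heavy chains in H82. It lies on chromosome 15 at 44711358 to 44718851 on the plus strand and shares no 50-base word with another gene. Untreated H82 held 17.6, 16.99 and 16.6 TPM and treated H82 65.3, 76.5 and 69.5 TPM. The groups lay far apart, with a 4.12-fold rise in the mean and a log2 fold change of 1.98 (SE 0.130, limma adjusted *p* = 0.000128). In H146 the untreated libraries held 58.4, 54.8 and 59.8 TPM and the treated ones 44.9, 53.6, 25.01 and 24.2 TPM. All treated libraries were lower, replicates 3 and 4 by more than replicates 1 and 2, but the log2 fold change of -0.71 (SE 0.277, 95% confidence interval -1.34 to -0.08) did not pass (limma adjusted *p* = 0.0623). It passed without treated replicate 2, at -0.91 (limma adjusted *p* = 0.00817), and after scaling by the median of ratios, at -1.02 (limma adjusted *p* = 0.0261).

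**Figure D2:**
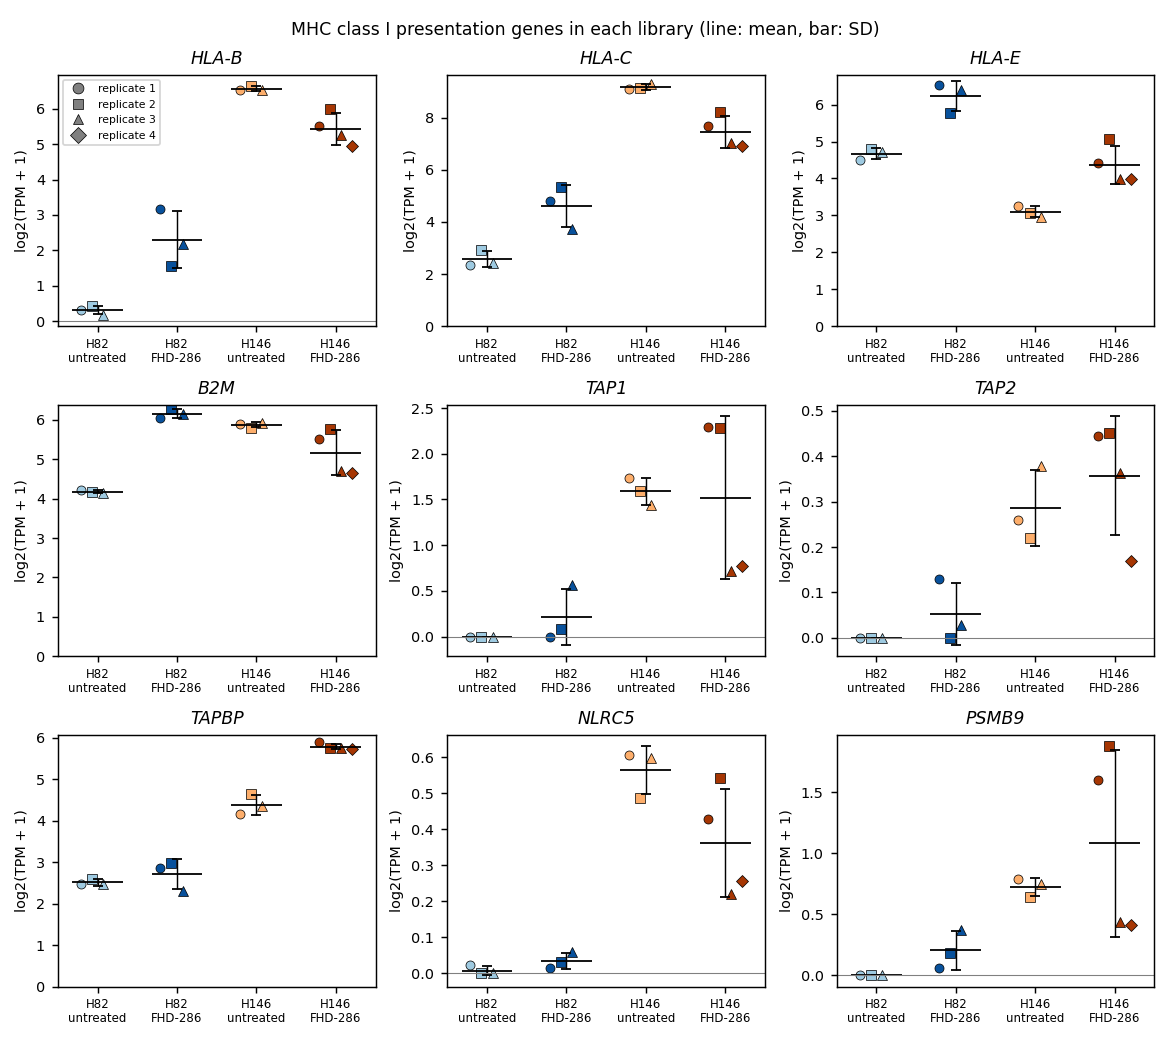
Each member in every library, on the scale log2(TPM + 1), by line and treatment, with the mean as a line and the SD as a bar (n = 3, or 4 in treated H146). *HLA-B*, *HLA-C* and *B2M* sit higher in treated H82 and lower in treated H146, *HLA-E* sits higher in both, and *TAPBP* sits higher in treated H146.

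Tapasin rose in H146. *TAPBP*, on chromosome 6 at 33299694 to 33314284 on the minus strand, was at 16.9, 23.9 and 19.6 TPM without treatment and at 58.5, 53.5, 53.4 and 52.4 TPM with it. The treated libraries lay close together and well above the untreated ones, a 2.70-fold rise in the mean (log2 fold change 1.40, SE 0.137, limma adjusted *p* = 0.000149). In H82 the values were 4.55, 5.08 and 4.53 TPM without and 6.29, 6.89 and 3.91 TPM with treatment, and the groups overlapped. The summed share of treated H146 RNA named above would bring 2.70 TPM, beside the 6.89 TPM measured in treated replicate 2. Such carry-over was not tested. The rise in mean TPM was 1.21-fold, and 1.08-fold without that library. With all libraries the log2 fold change in H82 was 0.20 (SE 0.233, limma adjusted *p* = 0.491). It was 1.09 after quantile normalization (limma adjusted *p* = 0.00496).

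The transporter genes were scarce. *TAP1*, which encodes one chain of the peptide transporter, lies on chromosome 6 at 32845209 to 32853816 on the minus strand. It was listed at 0 in all untreated H82 libraries and at 0, 0.0578 and 0.478 TPM in the treated ones, below the filter (exact permutation test, two-sided, *p* = 0.4, where 0.1 is the smallest *p* that 3 against 3 allows). In H146 it was at 2.33, 2.02 and 1.71 TPM without treatment. Treated replicates 1 and 2 held 3.91 and 3.88 TPM and treated replicates 3 and 4 held 0.647 and 0.708 TPM, so the treated libraries lay on both sides of the untreated ones. The log2 fold change was -0.07 (SE 0.436, 95% confidence interval -1.07 to 0.93, limma adjusted *p* = 0.905), and its sign turned when treated replicate 3 (0.20) or 4 (0.18) was left out.

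*TAP2*, the other chain, was listed at 0 in untreated H82 and reached at most 0.0935 TPM in treated H82. In H146 it was at 0.165 to 0.301 TPM without and 0.125 to 0.367 TPM with treatment, again with overlap (exact permutation *p* = 0.429, with 0.0286 the smallest that 3 against 4 allows). Of its 50-base words, 35.3% also occur in an overlapping gene on the same strand, so its level is uncertain. Its gene lies on chromosome 6 at 32821833 to 32838739 on the minus strand.

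*PSMB9*, which replaces a catalytic subunit in the immunoproteasome, behaved much like its neighbour *TAP1*. The annotated spans of the pair overlap on opposite strands, *PSMB9* at 32844136 to 32859851 on the plus strand of chromosome 6, and whether reads were counted by strand is not given in the sources used here. In H82 it was listed at 0 in every untreated library and at 0.0389, 0.136 and 0.291 TPM in the treated ones, with no overlap (exact permutation *p* = 0.1, the smallest possible). In H146 it was at 0.723, 0.562 and 0.682 TPM without treatment and at 2.04, 2.67, 0.349 and 0.326 TPM with it (exact permutation *p* = 0.457). As for *TAP1*, treated replicates 1 and 2 lay above and replicates 3 and 4 below all untreated libraries.

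*NLRC5*, the transactivator of class I promoters, stayed near the bottom of the scale. Its gene lies on chromosome 16 at 56989485 to 57083531 on the plus strand. No H82 library held more than 0.0412 TPM. H146 held 0.522, 0.403 and 0.515 TPM without and 0.346, 0.456, 0.165 and 0.194 TPM with treatment, which overlapped (exact permutation *p* = 0.114). H82 held 0.0155, 0 and 0 TPM without and 0.00965, 0.0224 and 0.0412 TPM with treatment, which also overlapped (exact permutation *p* = 0.2). The part of *NLRC5* in the H82 rise of *HLA-B*, *HLA-C* and *B2M* was not tested.

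In H82 the fit covered 5 of the 9 members, of which 4 were higher and 0 lower, and in H146 it covered 6, of which 2 were higher and 2 lower. The background shares are 13.1% higher and 45.5% lower in H82, and 32.5% higher and 15.5% lower in H146. Of the 4 higher in H82, 3 passed the filter through both groups. *HLA-B* passed it there through the treated libraries alone, so its call and its lack of overlap in H82 are no support. The 4 members below the filter in H82 were *TAP1*, *TAP2*, *NLRC5* and *PSMB9*, and the 3 in H146 were *TAP2*, *NLRC5* and *PSMB9*. Treated and untreated libraries did not overlap, in the higher direction, for *HLA-B*, *HLA-C*, *HLA-E* and *B2M* in H82, where 16.4% of all genes tested did so (51.4% in the lower direction). In H146 *HLA-E* and *TAPBP* did so in the higher direction, as did 35.7% of all genes, and *HLA-B*, *HLA-C* and *B2M* in the lower direction, as did 17.3%.

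**Figure D3:**
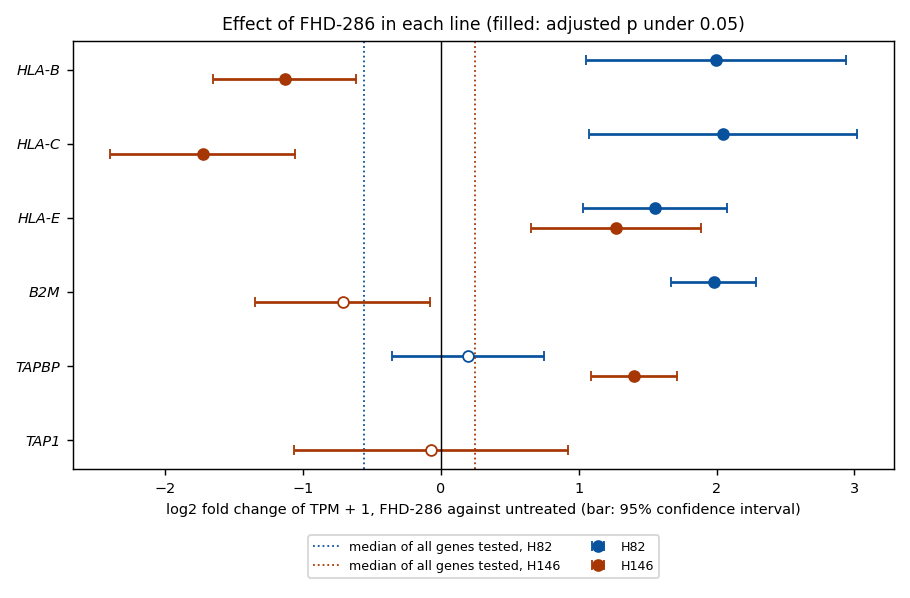
Log2 fold change of TPM + 1 for the members tested, FHD-286 against untreated, with 95% confidence intervals, in H82 (blue) and H146 (brown), where filled points passed an adjusted *p* of 0.05 and dotted lines mark the median of all genes tested. *HLA-B* and *HLA-C* lie at 2.00 and 2.05 in H82 and at -1.13 and -1.73 in H146, while the intervals of *HLA-E* in the 2 lines overlap.

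An interaction term in a fit of all 13 libraries compared the effects in the 2 lines, where 13.3% of 24374 genes had a higher and 46% a lower effect in H82 than in H146, around a median difference of -0.75. The effect in H82 exceeded that in H146 by 3.77 for *HLA-C* (SE 0.537, limma adjusted *p* = 9.49e-05), by 3.13 for *HLA-B* (SE 0.472, limma adjusted *p* = 0.000143) and by 2.69 for *B2M* (SE 0.344, limma adjusted *p* = 4.34e-05), all on the log2 scale. Without H82 treated replicate 2 these calls held. For *TAPBP* the difference was -1.20 (SE 0.248, limma adjusted *p* = 0.00126), and it fell short after scaling by the median of ratios (-0.47, limma adjusted *p* = 0.151) or quantile normalization (-0.07, limma adjusted *p* = 0.807). *HLA-E* did not pass, with a difference of 0.28 (95% confidence interval -0.53 to 1.10, limma adjusted *p* = 0.534), nor did *TAP1* at 0.28 (limma adjusted *p* = 0.669).

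Around the members, 102 further genes of class I presentation, its regulators, interferon responses, MHC class II and natural killer ligands were counted. In H82, 64 were tested, with 16 higher and 20 lower (13.1% and 45.5% of all genes), and in H146 81 were tested, with 26 higher and 16 lower (32.5% and 15.5%). Their median log2 fold change was -0.05 in H82 and 0.07 in H146, beside -0.56 and 0.25 over all genes. In H82, 3 of the 16 higher genes passed the filter on low values through the treated libraries alone (*CXCL10*, *IFITM3* and *HLA-DPA1*) and 4 of the 20 lower genes through the untreated libraries alone, among them *TAPBPL*, *IRF9* and *CD74*. In H146, 1 of the 16 lower genes did so. Such genes had to differ to be tested, so their tests are no support. These counts moved by more than 1.5 times with the scaling between libraries and with single libraries.

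The list of 7 class I-like genes had 1 above the filter in H82, which did not pass the test, and 5 in H146, of which 1 was higher and 1 lower. *MICB*, a stress ligand of NKG2D, fell in H146 (-1.70, limma adjusted *p* = 0.000233), and *HFE*, a class I-like regulator of iron uptake, rose there (0.86, limma adjusted *p* = 0.00876).

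Peptide loading and trimming genes counted 0 higher and 2 lower of 7 tested in H82, and 1 higher and 2 lower of 7 in H146. *TAPBPL*, a tapasin-related peptide editor, fell in both lines, at -1.43 in H82 and -1.59 in H146 (log2, limma adjusted *p* = 0.000902 and 9.64e-05), so tapasin and its relative moved apart in H146. The H82 test of *TAPBPL* is no support, since it passed the filter through untreated libraries alone. *LNPEP*, an endosomal aminopeptidase, fell by 1.06 in H82 and rose by 1.02 in H146 (limma adjusted *p* = 0.00133 and 0.00135). The chaperone *CALR* did not pass in either line. It stood at 5153 TPM in H82 treated replicate 1, beside 1181 to 1215 TPM in the other treated H82 libraries. From the same list, *HSPA5* was at 4001 TPM there, beside 592 and 511 TPM, and *PDIA3* at 761 TPM, beside 375 and 337 TPM. Among the members tested in H82, *HLA-B* and *HLA-E* were highest in that replicate, but *HLA-C*, *B2M* and *TAPBP* in replicate 2. A link was not tested.

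The 3 constitutive catalytic proteasome subunits, which the immunoproteasome subunits replace, were all higher in H82: *PSMB6* by 1.27, *PSMB5* by 1.24 and *PSMB7* by 1.08 (limma adjusted *p* = 0.00588, 0.00212 and 0.0111). *PSMB5* rose by 0.93 in H146 (limma adjusted *p* = 0.00657). The immunoproteasome and activator genes counted 0 higher and 1 lower of 4 tested in H82, where *PSMB10* fell by 0.77, and 1 higher and 2 lower of 4 in H146. There the activator subunit *PSME1* fell by 1.55 and the immunoproteasome subunit *PSMB8* by 1.20, and *PSME3*, which forms a nuclear activator, rose by 1.18 (limma adjusted *p* = 0.000151, 0.00756 and 0.0142).

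Transcriptional regulators of class I counted 4 higher and 2 lower of 11 tested in H82 and 6 higher and 2 lower of 12 in H146. In H146, *IRF1*, an interferon-induced activator of class I promoters, fell from 12.3, 12.0 and 13.2 TPM to 1.35, 1.57, 1.06 and 0.886 TPM. The groups lay far apart, with a log2 fold change of -2.62 (SE 0.170, limma adjusted *p* = 2.09e-05). *IRF2*, a relative of *IRF1*, fell there by 1.61 (limma adjusted *p* = 0.00084). *NFYA*, a subunit of the factor that binds CCAAT, rose by 1.27 in H146 (limma adjusted *p* = 0.000866). In H82 *RFXANK*, a subunit of the RFX complex at class I and class II promoters, rose by 1.16 and *CREB1*, which binds CRE elements, fell by 0.83 (limma adjusted *p* = 0.000687 and 0.00308). *NFKB1*, an NF-kappaB subunit, rose in both lines, by 1.23 in H82 and 1.16 in H146 (limma adjusted *p* = 0.0187 and 0.0288).

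Interferon signalling genes counted 2 higher and 4 lower of 10 tested in H82 and 7 higher and 2 lower of 12 in H146. The receptor chain *IFNAR1* and the factor *IRF9* fell in H82 by 1.04 and 1.01, and *STAT3* rose by 0.86 (limma adjusted *p* = 0.0108, 0.00268 and 0.0102). In H146 the kinase *JAK2* rose by 1.5 and the interferon gamma receptor *IFNGR1* fell by 0.93 (limma adjusted *p* = 0.000189 and 0.00659). Interferon-induced genes counted 3 higher and 3 lower of 10 tested in H82 and 2 higher and 4 lower of 20 in H146. *IFITM3*, an antiviral membrane protein, *CXCL10*, a chemokine that draws T cells, and *IFI35* rose in H82 by 2.72, 2.22 and 2.06, and *IRF7* fell by 1.70 (limma adjusted *p* = 0.00528, 0.000316, 0.0026 and 0.00327). *IFITM3* and *CXCL10* passed the filter through treated libraries alone and *IRF9* through untreated libraries alone in H82, so these tests are no support. In H146 *ISG20* fell by 1.74 and *OAS1* by 1.31, and *BST2* rose by 0.90 (limma adjusted *p* = 0.000103, 0.00443 and 0.0319).

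MHC class II genes, which present peptides to CD4 T cells, counted 3 higher and 2 lower of 6 tested in H82 and 5 higher and 0 lower of 6 in H146. The invariant chain *CD74* fell by 2.19 in H82 and rose by 1.08 in H146, *HLA-DRB1* and *HLA-DPA1* rose by 1.23 and 1.12 in H82, and *HLA-DMA* and *HLA-DPB1* rose by 1.51 and 1.06 in H146 (limma adjusted *p* from 0.00157 to 0.0292). In H82 *CD74* passed the filter through untreated libraries alone and *HLA-DPA1* through treated libraries alone, so these tests are no support. Polycomb repressor genes counted 1 higher and 3 lower of 6 in H82 and 1 higher and 1 lower of 6 in H146, where *EZH2*, the catalytic subunit, rose by 0.42 and *RBBP7* fell by 0.42 (limma adjusted *p* = 0.0180 and 0.00936). *SUZ12* fell by 0.99 and *EED* rose by 0.65 in H82 (limma adjusted *p* = 0.00397 and 0.0394). Natural killer and checkpoint ligands counted 0 higher and 3 lower of 6 in H82, led by *NECTIN2* (-1.70, limma adjusted *p* = 0.000164), and 1 higher and 2 lower of 6 in H146, with *ULBP2* at -1.02 and *ULBP3* at 0.69 (limma adjusted *p* = 0.0145 and 0.0288).

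**Figure D4:**
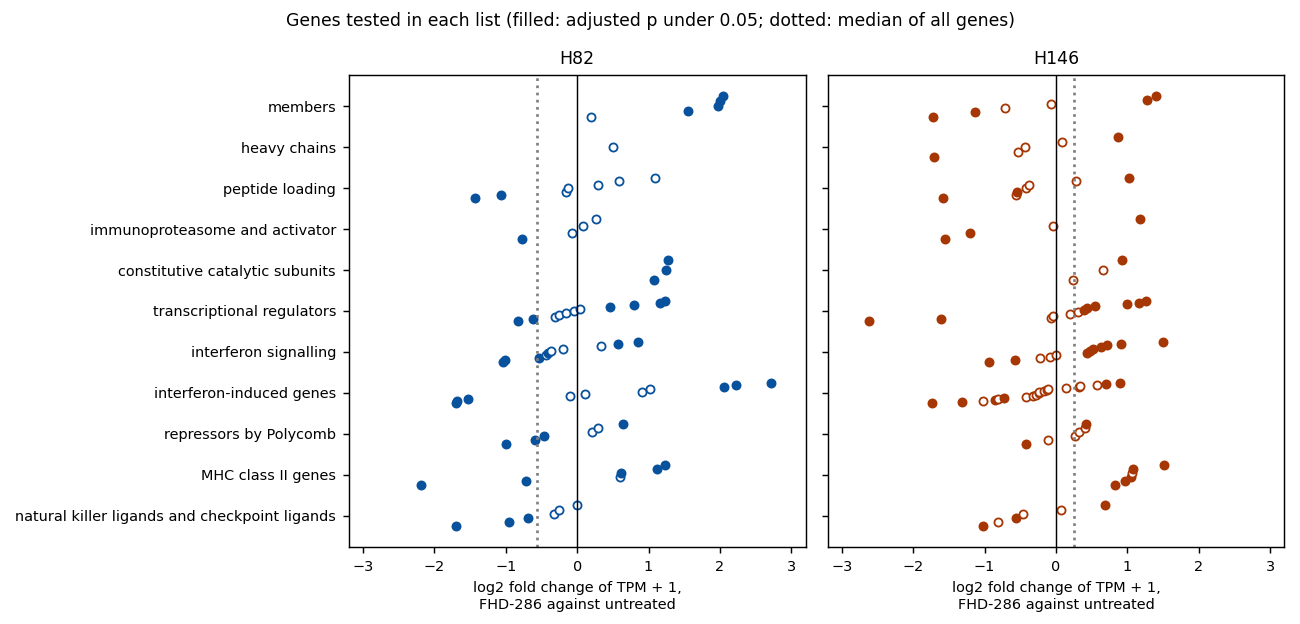
Log2 fold change of TPM + 1, FHD-286 against untreated, of every tested gene in the members and the 10 other lists, in H82 (left) and H146 (right), where filled points passed an adjusted *p* of 0.05 and the dotted line marks the median of all genes. The 4 called members lie between 1.55 and 2.05 in H82, while the called members in H146 lie on both sides of 0.

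**Figure D5:**
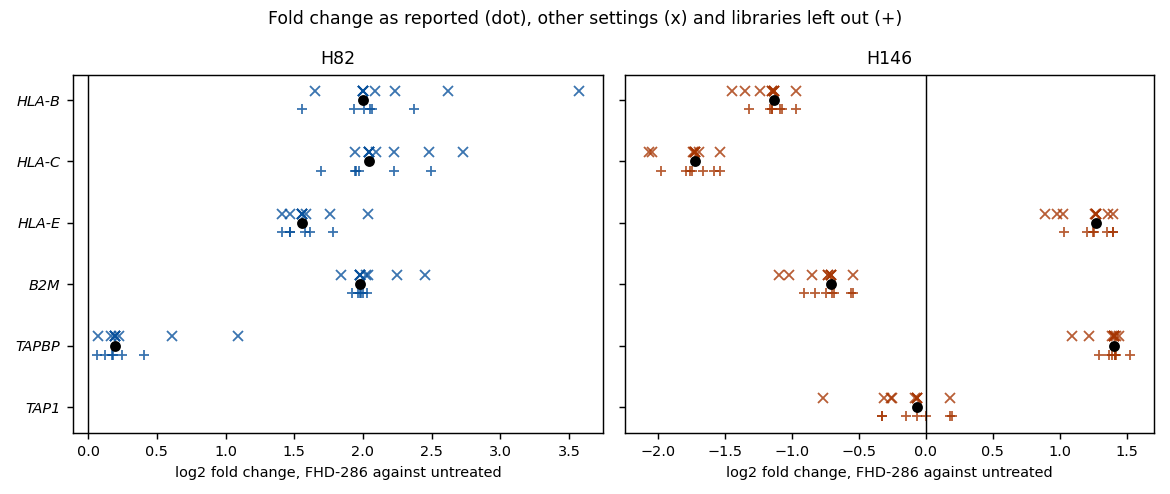
Log2 fold change of the tested members as reported (dots), under other settings (x) and with each library left out in turn (+), in H82 (left) and H146 (right). *HLA-B*, *HLA-C*, *HLA-E* and *B2M* stay above 0 in H82, *HLA-B*, *HLA-C* and *B2M* stay below 0 in H146, and *TAP1* lies on both sides of 0.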

How the data were processed

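RNA was measured by RNA-seq in 13 libraries of H82 and H146. The authors mapped and counted the reads with STAR on hg38 with GENCODE release 28 and deposited 1 table of TPM values per line. The submitters' processing notes also name Trim Galore 0.4.4 and DESeq2. Every column sums to 1000000, no scaling between libraries was added, and depth was not given, so no interval from counts was drawn. TPM is a share, so a few abundant genes can shift all others. Mitochondrial genes held 22.1 to 24.1% of TPM in untreated and 12.3 to 14.9% in treated H82. In H146 they held 7.56 to 8.86% in untreated and 3.82 to 11.4% in treated libraries. Genes at 1 TPM or more numbered 21227 to 21772 in untreated and 15554 to 16633 in treated H82. In H146 there were 17476 to 17965 in untreated and 18778 to 19309 in treated libraries.

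Here log2(TPM + 1) was fitted with limma 3.58.1 (R 4.3.3, trend) per line, with an interaction over both lines. Genes below 1 TPM in 3 libraries were compared by an exact permutation test. Fold changes on this scale understate those of low genes. The fits within each line, but not the interaction, were also run on simulated data in which few genes changed. That run does not cover shifts of many genes as seen here. Coordinates come from GENCODE release 44.

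Named were all members and, from each list, the largest rise and fall past the threshold in each line and up to 2 further genes with a log2 fold change of at least 1. *CALR*, *HSPA5* and *PDIA3* were named after their values were seen. The members, lists and rules were chosen with earlier results of these data known. 1 gene of a list is not reported here and is left out of the counts. Groups came from the labels. Alternatives were another pseudocount, other filters and scalings, library weights, no trend, a replicate block and each library left out.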

Additional observations from a re-analysis of the deposited data

Results flagged for a closer look

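The effect of FHD-286 differed between the lines for 4 members by the interaction test. Of all 24374 genes, 13.3% had a higher and 46% a lower effect in H82 than in H146, around a median difference of -0.75. In log2 units of TPM + 1, the effect in H82 minus that in H146 was 2.69 for *B2M*, 3.13 for *HLA-B*, 3.77 for *HLA-C* and -1.20 for *TAPBP*. The difference of *TAPBP* fell short after scaling by the median of ratios or quantile normalization. In H82 3 of 3 treated libraries lay above all untreated ones for *B2M*, *HLA-B* and *HLA-C*, as for 16.4% of all genes tested. In H146 4 of 4 lay below, as for 17.3%. *HLA-B* passed the filter in H82 through the treated libraries alone, so its lack of overlap there is no support. Among the treated H146 libraries, *IFNGR1* in replicate 2 stood at 84.7 TPM, far from the other 3 libraries at 47.8 to 49.8 TPM. About 1 in 20 groups is marked this way by chance.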

How the results depend on the processing

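The calls and directions of *HLA-B*, *HLA-C* and *HLA-E* in both lines, of *B2M* in H82 and of *TAPBP* in H146 held under every alternative run, as did the line differences of *HLA-B* (2.69 to 4.72), *HLA-C* (3.42 to 4.55) and *B2M* (2.52 to 3.48). The H82 call of *HLA-B* is still no support, since it passed the filter there through the treated libraries alone. With library weights, when the lower genes among all 19585 tested in H146 went from 3033 to 4806, 4 members were lower there, since *B2M* (-1.10) and *TAP1* (-0.77) then passed, and the line differences of *HLA-E* (0.63) and *TAP1* (1.07) passed too. The line difference of *HLA-E* was also past the threshold after the median of ratios (1.06, limma adjusted *p* = 0.0428). *TAP1* in H146 turned to 0.0037 without untreated replicate 1, to 0.20 without treated replicate 3 and to 0.18 without treated replicate 4. Over all libraries left out in turn it ran from -0.33 to 0.20. The cause was not tested. For the other lists, the median of ratios gave 25 higher and 9 lower genes in H82 and 9 higher and 27 lower in H146. Quantile normalization gave 25 and 11 in H82 and 15 higher in H146. No filter gave 16 higher and library weights 30 lower in H146. With each library left out, the members counted 4 higher and 0 lower in H82, 2 higher and 2 to 3 lower in H146 and 4 with a line difference, and the other lists 10 to 22 higher and 11 to 24 lower in H82 and 12 to 26 higher and 12 to 24 lower in H146. Counts that moved by more than 1.5 times came without H82 untreated replicate 3 (10 higher, 12 lower), H82 untreated replicate 1 (11 lower), H82 treated replicate 2 (13 lower), H146 untreated replicate 1 (17 higher), H146 untreated replicate 2 (15 higher), H146 untreated replicate 3 (12 higher) and H146 treated replicate 3 (13 higher).

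The labels do not say whether replicate numbers pair the libraries. Deviations of same-numbered libraries correlated at -0.14 to 0.027, beside -0.04 to 0.12 for differently numbered ones. Treated replicate 4 of H146 was not in this comparison. Such low correlations cannot exclude a pairing. With a replicate block the members counted 4 higher in H82, 2 higher and 2 lower in H146 and 4 with a line difference, *TAP1* in H146 was at 0.18 (limma adjusted *p* = 0.698), and genes higher in H146 went from 6356 to 4749.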

Other observations

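Over the 13 libraries, centred within each line, the genes whose values ran most like the mean of the 5 members tested in both lines were *POLR3GL* (Pearson r = 0.966), *RP11-343H5.4* (0.962), *VWA5A* (0.955), *COX7C* (0.955) and *NUDT2* (0.955), out of 15679 genes. The libraries share line and treatment, so these values describe them only. Among the members *B2M* was at 0.944, *HLA-B* at 0.880, *HLA-C* at 0.817, *HLA-E* at 0.683 and *TAPBP* at 0.060.

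Values of 4 genes from the list of 24 interferon-induced genes, picked after they were seen, differ in how they run over the treated H146 libraries. *GBP1*, an interferon-induced GTPase, was at 4.93 and 4.93 TPM in treated replicates 1 and 2 and at 0.0859 and 0.140 TPM in replicates 3 and 4, beside 1.87 to 2.11 TPM in untreated H146. *CXCL10* was at 2.15 and 8.60 TPM in replicates 1 and 2, at 0.0912 TPM in replicate 3 and listed at 0 in replicate 4. *OAS3* was at 8.94 to 9.54 TPM and *IFI35* at 18.4 to 22.1 TPM over the 4 treated libraries. Over all genes tested, replicates 3 and 4 correlated at 0.988, replicates 1 and 2 at 0.969, and replicates 1 and 3 at 0.968 (Pearson r of log2(TPM + 1) across genes, which are not independent replicates). Replicates 1 and 4 correlated at 0.965, replicates 2 and 3 at 0.938, and replicates 2 and 4 at 0.934.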
